A study of Mus musculus with 23 samples.

Results

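FAP+ cancer-associated fibroblasts (CAFs) sorted from MC38 tumors were compared with FAP+ CAFs sorted from Pan02 tumors, with 2 libraries of each. These 4 libraries were taken from the 23 libraries analysed here, which hold 15 whole tumors and 8 CAF samples. The pair was proposed because its groups lie at the ends of the first principal component of the CAF libraries. Expression values thus entered the choice. MC38 is a colon carcinoma line and Pan02 a pancreatic ductal carcinoma line, both derived from C57BL/6 mice. In each case 500000 cultured cancer cells were injected under the skin of the flank of adult female C57BL/6 mice, which received no other treatment, and tumors were taken at the endpoint. CD45- cells of the digested tumors were stained for FAP and sorted, and the 2 libraries of a model come from separate rounds of sorting, so the p-values below measure only the spread between 2 sorts. The number of tumors behind a sort is not given in the sources used here. Tumors of both lines, 3 of each, were sequenced as whole fragments. Excised tumors were divided among assays in this study, so the whole-tumor and sorted libraries may come from the same mice.

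CAFs are the main matrix-producing cells of a solid tumor. They secrete fibrillar collagens and the enzymes that process and degrade them, and they occur in states named after their leading genes, among them contractile myofibroblastic CAFs, inflammatory CAFs that secrete cytokines, vascular CAFs with genes of pericytes, and antigen-presenting CAFs that carry MHC class II. FAP, a membrane protease of activated fibroblasts, was the antigen used for the sort. The 2 genes supplied as markers of the contrast stand for the matrix side and the antigen side: *Mmp11* encodes a secreted metalloproteinase typical of tumor stroma, and *Cd74* encodes the invariant chain that escorts MHC class II molecules. Both were named for the ends of the first principal component with earlier results of these data known, so their levels are given as a description, with no p-value. Both are among the called genes and are counted in the totals and lists below, where these 2 calls are not separate evidence.

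The authors' CAF table gives RPKM, reads scaled for transcript length and library size. Reads recovered from the steps between its values summed over genes to 10694738 and 6218668 in the MC38 libraries and to 13588442 and 14783115.5 in the Pan02 libraries, so MC38 replicate 2 is the shallowest of the 4. Differences were tested as log2(RPKM + 1) with limma on the 12853 genes that reached 1 RPKM in 2 or more of the 4 libraries. A gene was called where its adjusted p was under 0.05 and its log2 fold change was 1 or more in size, and this scale understates the change of genes at low levels. Fold changes below are MC38 minus Pan02, with their standard error (SE) and n = 2 per group.

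MC38 and Pan02 CAFs lay at the 2 ends of the first principal component of the 8 CAF libraries, which carried 40.8% of the variance. The pair was proposed for this position, which is therefore a description. The MC38 libraries scored 57.7 and 52.0 and the Pan02 libraries -74.3 and -76.5, while EO771 (breast carcinoma) and LL2 (lung carcinoma) CAFs lay between them at 2.9 to 17.2. On the second component, with 34.0%, MC38 lay at 45 and 62 and Pan02 at 22.7 and 27.3, both on the side away from EO771. The distance between an MC38 and a Pan02 library over all genes was 137 to 141 log2 units, against 63.9 between the 2 MC38 libraries and 42.0 between the 2 Pan02 libraries.

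**Figure D1:**
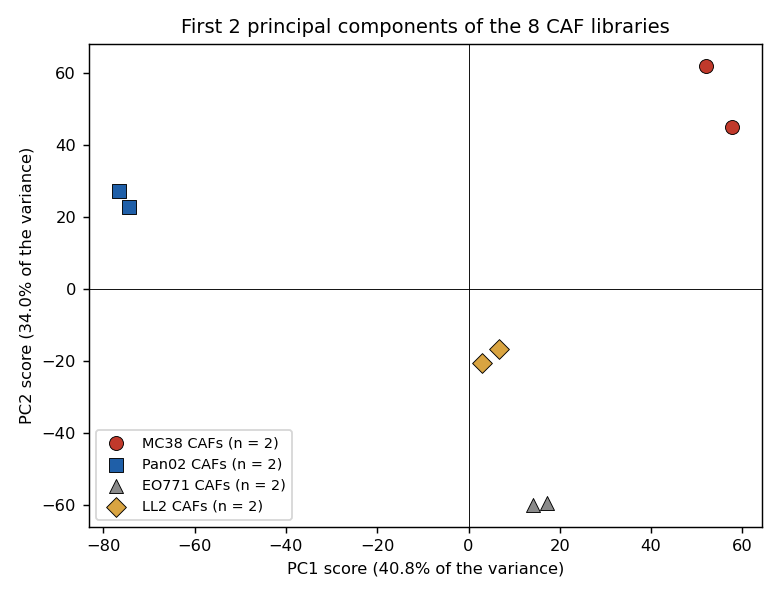
Scores of the 8 CAF libraries on the first and second principal components of log2(RPKM + 1), 1 point per library, coloured by model. The Pan02 libraries sit at -74.3 and -76.5 on the horizontal axis and the MC38 libraries at 57.7 and 52.0, with the other 4 libraries between 2.9 and 17.2.

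Of the 12853 genes tested, 1897 were higher in MC38 CAFs, which is 14.8%, and 2016 were higher in Pan02 CAFs, which is 15.7%. Each library was also left out in turn on the same 12853 genes, a choice made after seeing the data. This gave 786 and 983 genes without Pan02 replicate 1, 869 and 1048 without Pan02 replicate 2, 1754 and 2086 without MC38 replicate 1, and 2265 and 2053 without MC38 replicate 2. List counts without a library are given below on these same genes, MC38 first and Pan02 second, unless the filter is said to be applied anew. Counts of list members are to be read against the 14.8% and 15.7% of all genes. Counts near these shares are not results about a list. In a fit of all 8 CAF libraries this pair of models had the highest share of called genes of the 6 pairs, 31.4%, ahead of MC38 against EO771 with 28.2% and Pan02 against EO771 with 26.5%, while LL2 against EO771 had 14.4%. Since the pair was proposed as the ends of the first component, this rank is a description. CAFs of the other models did not side with one end throughout. Among the genes higher in MC38 CAFs, the level in both EO771 and LL2 was nearer to Pan02 for 49.9% and nearer to MC38 for 23.1%. Among the genes higher in Pan02 CAFs, both were nearer to MC38 for 37.8% and nearer to Pan02 for 30.3%. These shares describe genes chosen by the same contrast and carry no test.

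The label of the sorted cells was checked against markers of the cell types a tumor holds. The fibroblast genes were present in every library. *Col1a1*, a chain of collagen I, stood at 2771 and 467 RPKM in MC38 and at 1535 and 795 in Pan02, *Pdgfrb*, a receptor of mesenchymal cells, at 82.3 and 38.2 against 68.7 and 50.7, and *Pdgfra* at 19.8 and 14.3 against 18.4 and 27.5. *Fap* itself was low, with 11.4 and 4.29 RPKM in MC38 and 3.28 and 1.89 in Pan02 (log2 fold change 1.20 ± 0.44, adjusted p = 0.071). Both MC38 values lay above both Pan02 values, as they did for 37.5% of all genes tested. MC38 replicate 2 stood apart from replicate 1 in these genes: the levels of 27 fibroblast identity genes summed to 10157 RPKM in replicate 1 and 3647 in replicate 2, against 6762 and 4706 in Pan02. In whole tumors, on a separate scaling, they summed to 3412 to 5560 in MC38 and to 11525 to 12718 in Pan02. Both sorted Pan02 libraries thus lay below the Pan02 tumors, and MC38 replicate 2 lay within the range of the MC38 tumors.

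Markers of leukocytes were low in sum. *Ptprc*, which encodes CD45, reached at most 0.092 RPKM in the 4 sorted libraries, against 6.36 to 25.7 in the whole tumors of both lines, and 36 leukocyte markers summed to 21.0 to 31.1 RPKM in the sorted libraries against 1144 to 3955 in the tumors. Tumor levels are RPKM computed from the tumor counts with the total count over genes, a scaling of its own. *Pecam1*, the endothelial adhesion gene, stood at 1.64 to 2.83 RPKM, against 17.1 to 32.2 in tumors, and *Epcam* at 0.203 to 2.08. *Cd53*, a leukocyte tetraspanin that is not on the list and was named after its values were seen, stood at 16.1 and 28.1 RPKM in Pan02 CAFs against 0.217 and 0.039 in MC38 CAFs (-4.31 ± 0.30), and at 25.4 to 74.2 in Pan02 tumors.

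Some genes that mark the injected cancer lines were present in the sorted libraries, *Ehf* and *Pdx1* within their range in Pan02 tumors. The word CAFs names the sorted FAP+ fraction throughout, and calls below were not assigned to a cell type within it. *Fam159b*, listed for its restriction to MC38 among the tumor models, stood at 61.0 and 58.7 RPKM in MC38 CAFs and at 0 in both Pan02 libraries, against 83.2 to 133.5 in MC38 tumors. *Tex13b*, a testis-expressed gene, stood at 34.6 and 54.7 RPKM in MC38 CAFs and at 36.3 to 47.2 in MC38 tumors. *Elavl2*, the third gene listed for MC38, stood at 0.123 and 0.762 RPKM in MC38 CAFs, against 3.66 to 4.78 in MC38 tumors. On the other side *Ehf*, an epithelial transcription factor, stood at 23.03 and 26.02 RPKM in Pan02 CAFs and at 6.05 to 39.6 in Pan02 tumors, and *Pdx1*, the pancreatic homeobox gene, at 34.2 and 35.3 against 19.6 to 43.0. *Chil4* and *Slurp1*, the other genes listed for Pan02, were lower in the sorted cells than in tumors, *Chil4* at 23.1 and 45.5 RPKM against 50.1 to 1527 and *Slurp1* at 17.2 and 36.7 RPKM against 46.8 to 123.6. *Krt8* and *Krt18*, keratins of simple epithelia, were at 385 and 545 RPKM and at 349 and 483 RPKM in Pan02 CAFs, and at most at 0.979 in MC38 CAFs. The 40 epithelial markers summed to 1238 and 1542 RPKM in Pan02 CAFs and to 44.3 and 49.3 in MC38 CAFs, and in Pan02 tumors they summed to 1720 to 2577. The part of these transcripts in the differences below was not tested, and in bulk RNA fewer cells of a type and less RNA per cell cannot be told apart.

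**Figure D2:**
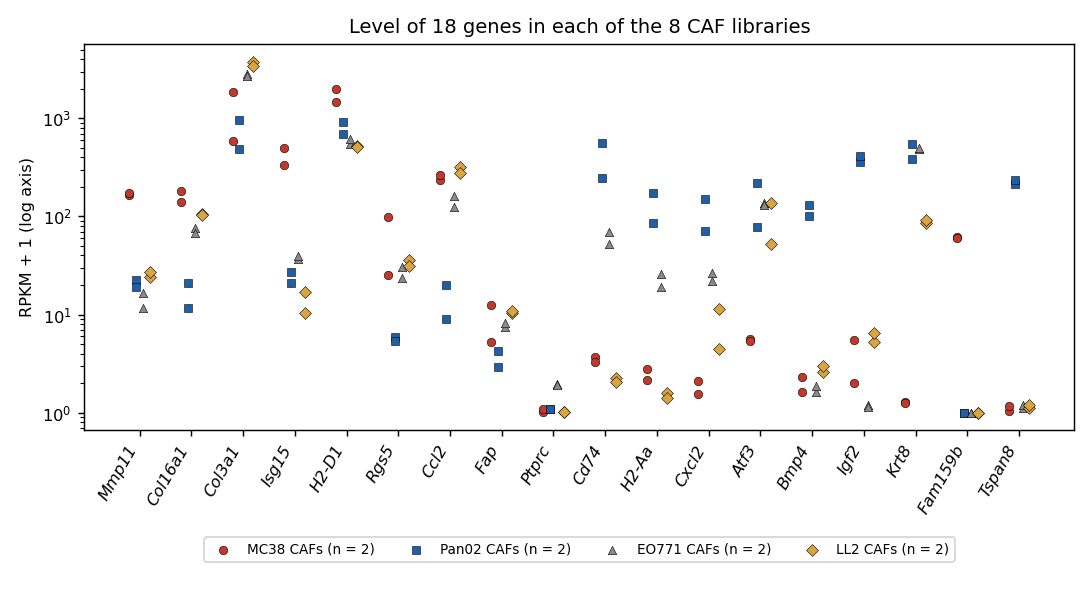
RPKM + 1 on a log axis for 18 genes in each CAF library, 1 point per library, with 2 libraries of each of 4 models. *Mmp11* is highest in the MC38 libraries and *Cd74* in the Pan02 libraries, *Ptprc* stays near the floor in all 8, *Fam159b* is above the floor in MC38 alone, and *Tspan8* in Pan02 alone.

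The 12 genes with the largest rise in MC38 CAFs, among called genes with a mean of at least 10 RPKM and no overlap between groups, were *Fam159b*, *Tex13b*, *Fmr1nb*, *Slc16a3*, *Bin2*, *Gm867*, *Hopx*, *Ldhb*, *Ovol2*, *Tcf15*, *Espn* and *Rhox5*, with log2 fold changes from 4.58 to 5.93. *Slc16a3*, the lactate exporter MCT4, stood at 215 and 177 RPKM in MC38 and at 5.29 and 3.25 in Pan02 (5.24 ± 0.25, adjusted p = 0.00041). *Ldhb*, a lactate dehydrogenase subunit, stood at 33.5 and 33.4 against 0.422 and 0.119 RPKM (4.77 ± 0.21, adjusted p = 0.00041). *Rhox5*, a reproductive homeobox gene of the X chromosome, stood at 267 and 266 against 12.4 and 8.39 RPKM. In EO771 CAFs *Rhox5* stood at 314 and 373 RPKM and in LL2 CAFs *Rhox5* stood at 235 and 290 RPKM. Only 1 of these 12 genes, *Ovol2*, is on the epithelial list, and none is on a fibroblast or matrix list.

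The 12 largest rises in Pan02 CAFs were *Krt8*, *Krt18*, *Tspan8*, *Igf2*, *Cd74*, *Enpp2*, *Notum*, *Mir5107*, *Cldn2*, *Cp*, *Bmp4* and *Cd24a*, with log2 fold changes from -5.89 to -8.51. *Enpp2*, which encodes autotaxin, the enzyme that makes lysophosphatidic acid, stood at 611 and 514 RPKM in Pan02 and at 5.99 and 4.47 in MC38 (-6.51 ± 0.21, adjusted p = 0.00027). *Cp*, the copper-binding ferroxidase ceruloplasmin, stood at 360.2 and 365 against 5.89 and 4.003 RPKM (-5.95 ± 0.22). *Igf2*, the fetal growth factor, stood at 356 and 415 against 4.54 and 0.985 RPKM (-6.86 ± 0.48, adjusted p = 0.00077), with 64.5% of its exon bases shared with other annotated genes. *Mir5107*, a microRNA annotation, was listed at 0 RPKM in both MC38 libraries and at 119 and 43.7 in Pan02. *Mir5107* lies within the span of *Cd74* on the same strand, so it may hold reads of *Cd74* and is not read as a separate rise. For *Krt8*, *Tspan8* and *Cldn2*, a claudin of leaky epithelia, the MC38 libraries held at most 0.274 RPKM.

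The matrix genes gave no uniform direction. Of 9 fibrillar collagen genes tested, 2 rose in MC38 CAFs and none in Pan02, with a median log2 fold change of 0.46 against -0.01 over all genes. *Col5a3*, a minor chain of collagen V, stood at 142 and 83.4 RPKM in MC38 and at 38.3 and 17.1 in Pan02 (2.04 ± 0.44, adjusted p = 0.014), and *Col27a1* at 13.0 and 11.4 against 5.63 and 2.55 RPKM (1.44 ± 0.32, adjusted p = 0.017). The major chains did not pass: *Col1a1* gave 0.04 ± 0.89 and *Col3a1*, at 1855 and 590 RPKM in MC38 and 954 and 486 in Pan02, gave 0.62 ± 0.66. The 2 MC38 libraries lay above and below the Pan02 libraries for *Col1a1*, so its direction turned with the library left out, from -1.24 without MC38 replicate 1 to 1.33 without replicate 2. Without Pan02 replicate 2 the calls of *Col5a3* (1.48, adjusted p = 0.062) and *Col27a1* (0.99, adjusted p = 0.063) ended as well.

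Outside the fibrillar group, *Col16a1*, a collagen that caps fibrils, was the clearest collagen of the MC38 side at 179 and 141 RPKM against 20.0 and 10.8 (3.35 ± 0.32, adjusted p = 0.0015). *Col18a1*, which carries endostatin, and *Col28a1* lay on the Pan02 side, at 328 and 449 against 108 and 49.5 RPKM (-2.38 ± 0.41) and at 79.0 and 80.0 against 2.27 and 1.42 RPKM (-4.84 ± 0.21). Of 24 enzymes that process or crosslink collagen, 5 rose in MC38 and 1 in Pan02, against 14.8% and 15.7% of all genes. *P3h3*, a prolyl hydroxylase of collagen, stood at 94.3 and 62.9 against 16.7 and 7.21 RPKM (2.69 ± 0.41, adjusted p = 0.0052), and *Loxl4*, a lysyl oxidase, was the member of the Pan02 side with -1.18 ± 0.23. Basement membrane genes split, with 3 of 15 higher in MC38, among them *Nid2* and *Hspg2*, and 3 higher in Pan02, among them *Lama5* at 51.6 and 51.5 against 9.52 and 12.6 RPKM. Without Pan02 replicate 2 the calls of *Nid2* (adjusted p = 0.093), *Hspg2* (adjusted p = 0.14) and *Loxl4* (adjusted p = 0.052) ended, and *Nid2* and *Loxl4* also lost theirs without Pan02 replicate 1 (adjusted p = 0.069 and 0.074). On the same genes the call of *Col18a1* ended too without either Pan02 library (adjusted p = 0.058 and 0.075), and basement membrane genes gave 0 and 1 without either, 1 and 3 without MC38 replicate 1 and 7 and 2 without MC38 replicate 2.

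Matrix glycoproteins and proteoglycans leaned to Pan02 in number, with 12 of 57 against 5, while their median was 0.10. Over all genes the shares were 15.7% for Pan02 and 14.8% for MC38. *Lum* and *Prelp*, small leucine-rich proteoglycans that bind collagen, were on the Pan02 side, *Prelp* at 126 and 147 against 41.7 and 11.1 RPKM (-2.60 ± 0.57, adjusted p = 0.016). *Thbs1*, the adhesive thrombospondin, stood at 256 and 223 against 92.8 and 17.5 RPKM (-2.53 ± 0.73, adjusted p = 0.035). *Vtn*, vitronectin, was on the MC38 side at 27.1 and 4.85 against 1.75 and 0.741 RPKM. These counts depend on MC38 replicate 2: when it was left out, 23 of the 57 were higher in MC38 and 11 in Pan02, the fibrillar collagens gave 3 and 0 of 9, and the processing enzymes 12 and 0 of 24. Without MC38 replicate 1 the same lists gave 4 and 21, 0 and 0, and 4 and 3. Without Pan02 replicate 1 they gave 1 and 2, 2 and 0, and 2 and 0, and without Pan02 replicate 2 they gave 1 and 3, 0 and 0, and 2 and 0. The calls of *Lum*, *Thbs1* and *Vtn* ended without either Pan02 library, at adjusted p of 0.064 to 0.13, and that of *Prelp* without replicate 2 (adjusted p = 0.061).

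Among the matrix metalloproteinases, *Mmp11* (chr10:75923222-75932502 of mm10, minus strand) stood at 163 and 171 RPKM in MC38 CAFs and at 21.5 and 18.2 in Pan02 CAFs. The 2 MC38 values lay close together and far above the other 6 CAF libraries, of which LL2 with 23.04 and 25.99 RPKM came highest, and the log2 fold change was 3.02 ± 0.19. *Mmp9*, a gelatinase, and *Mmp2*, the other gelatinase, were on the same side at 19.3 and 20.1 against 2.43 and 1.18 RPKM (2.92 ± 0.26) and at 325 and 152 against 81.7 and 36.1 RPKM (2.01 ± 0.51, adjusted p = 0.024). *Mmp28* and the membrane-anchored *Mmp15* were higher in Pan02 CAFs (-3.21 ± 0.24 and -2.77 ± 0.26), and *Mmp14*, the member with the highest level, gave 0.19 ± 0.44. In all, 3 of 11 tested MMP genes were higher in MC38 and 2 in Pan02, and 6 and 2 without MC38 replicate 2. Of 13 *Adamts* and *Timp* genes 1 and 2 were called, with *Timp2*, an inhibitor that also takes part in activating MMP-2, at 404 and 335 RPKM in Pan02 against 137 and 88.9 (-1.73 ± 0.29). The call of *Mmp2* ended without Pan02 replicate 2 (1.44, adjusted p = 0.12) and without MC38 replicate 1 (1.47, adjusted p = 0.051), and that of *Timp2* without Pan02 replicate 1 (adjusted p = 0.058).

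Of 27 vascular CAF and pericyte genes, 16 were higher in MC38 CAFs and 2 in Pan02, with a median of 1.68, and this count rested on having both Pan02 libraries. It was 1 and 1 without Pan02 replicate 1, 0 and 1 without Pan02 replicate 2, 12 and 4 without MC38 replicate 1 and 21 and 2 without MC38 replicate 2. With the filter applied anew these were 4 and 2, 2 and 2, 6 and 4, and 9 and 2, and with no filter on all 4 libraries 5 and 2. *Rgs5*, the regulator of G protein signalling that marks pericytes, stood at 96.6 and 24.6 RPKM in MC38 and at 4.89 and 4.33 in Pan02 (3.16 ± 0.60, adjusted p = 0.010), and *Ndufa4l2* at 150.4 and 53.8 against 8.55 and 4.93 RPKM (3.60 ± 0.51, adjusted p = 0.0043). *Higd1b* stood at 23.3 and 2.62 RPKM against 0.301 and 0.218 (2.90 ± 0.84, adjusted p = 0.036). In each of these genes MC38 replicate 1 was higher than replicate 2, and both were above Pan02. The call of *Higd1b* ended without either Pan02 library (adjusted p = 0.092 and 0.10), and on the same genes so did that of *Rgs5* (adjusted p = 0.076 and 0.081) and, without replicate 2, that of *Ndufa4l2* (adjusted p = 0.051). The 2 members on the Pan02 side were *Col18a1* and *Nr2f2*, a nuclear receptor of veins and stroma. Of 11 endothelial markers 3 were higher in MC38 and none in Pan02 (1 and 0 without Pan02 replicate 2, 7 and 0 without MC38 replicate 2), and all 20 summed to 114 and 62.0 RPKM in MC38 against 43.4 and 26.04 in Pan02.

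Contractile genes of myofibroblasts split, with 6 of 21 higher in MC38 and 3 in Pan02. They gave 0 and 1 without either Pan02 library, 3 and 7 without MC38 replicate 1 and 11 and 2 without MC38 replicate 2. *Des*, desmin, was at 28.5 and 6.15 RPKM against 1.72 and 1.01 (2.63 ± 0.65, adjusted p = 0.022), and *Myh11*, smooth muscle myosin, at 9.97 and 2.60 against 0.608 and 0.354 (2.09 ± 0.52, adjusted p = 0.023). *Vcl*, which links actin to adhesions, *Flna* and *Tpm1* were higher in Pan02, *Vcl* at 78.3 and 86.0 against 16.8 and 8.74 RPKM (-2.66 ± 0.31, adjusted p = 0.0026). The calls of *Des*, *Myh11*, *Flna* and *Tpm1* ended without either Pan02 library, at adjusted p of 0.052 to 0.18. *Acta2*, smooth muscle actin, stood at 229 and 30.3 RPKM in MC38 and 119 and 89.1 in Pan02 (-0.29 ± 0.89). Of the 26 fibroblast identity genes tested, 4 were higher in MC38, *Twist2*, *Cd34*, *Mrc2* and *Mmp2*, and 2 in Pan02, *Lum* and *Meox1*. *Cd34*, a sialomucin of adventitial fibroblasts and endothelium, stood at 90.5 and 79.5 against 15.7 and 8.19 RPKM (2.79 ± 0.31). Without Pan02 replicate 2 the calls of *Mmp2*, *Mrc2*, *Lum* and *Meox1* ended, at adjusted p of 0.059 to 0.13. The call of *Meox1* (adjusted p = 0.049) also ended without Pan02 replicate 1, without MC38 replicate 2 and with another pseudocount, scaling or filter, up to an adjusted p of 0.25. The list gave 3 and 0 without Pan02 replicate 1, 2 and 0 without Pan02 replicate 2, 3 and 5 without MC38 replicate 1 and 12 and 0 without MC38 replicate 2.

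**Figure D3:**
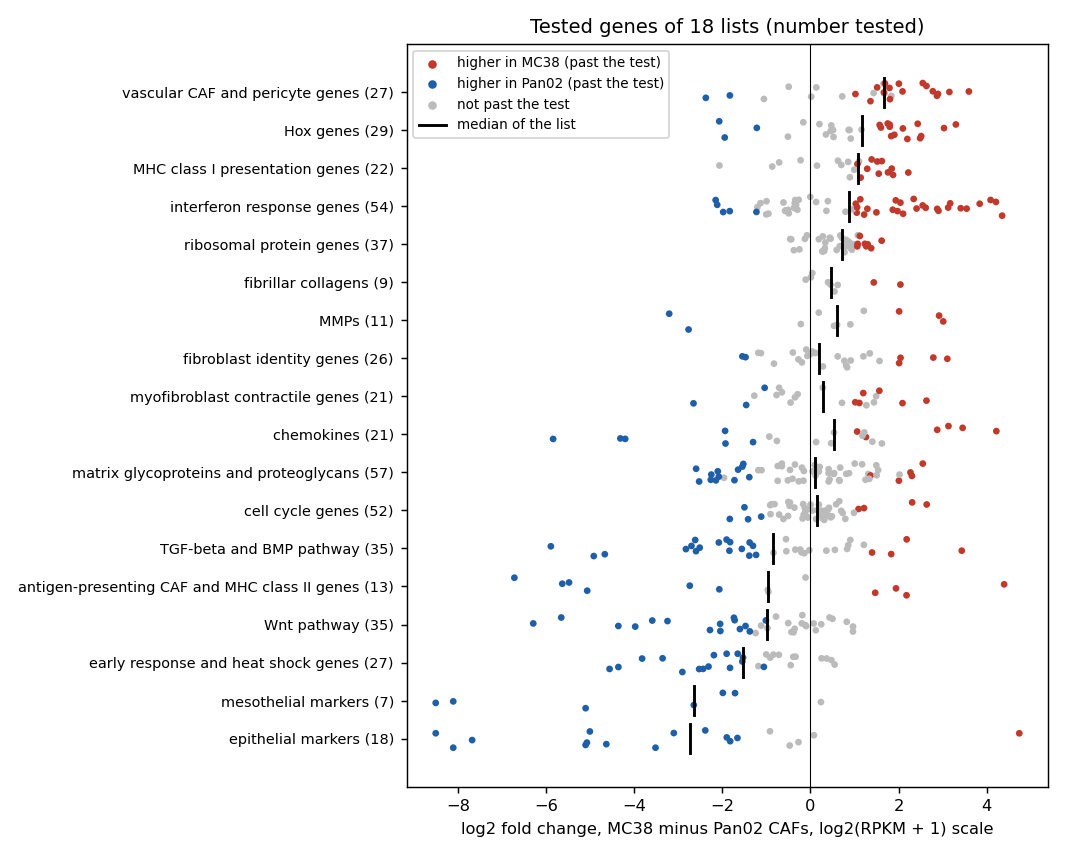
Log2 fold change (MC38 minus Pan02 CAFs) of each tested gene in 18 lists, 1 point per gene, red where higher in MC38 past the test, blue where higher in Pan02, with a bar at the median of the list. The medians run from 1.68 for vascular CAF and pericyte genes to -2.75 for epithelial markers, and several lists hold called genes on both sides.

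Interferon-induced genes were called more often on the MC38 side. Of 54 tested, 26 were higher in MC38 CAFs and 5 in Pan02, with a median of 0.88, and the counts were 24 and 5 without MC38 replicate 1, 25 and 3 without MC38 replicate 2, 23 and 3 without Pan02 replicate 1 and 18 and 7 without Pan02 replicate 2. *Oas2*, which makes the second messenger that activates RNase L, stood at 109 and 167 RPKM in MC38 and at 7.26 and 4.37 in Pan02 (4.35 ± 0.31, adjusted p = 0.00079). *Isg15*, a ubiquitin-like modifier, stood at 492 and 331 against 26.1 and 19.8 RPKM (4.09 ± 0.28, adjusted p = 0.00074), and *Rsad2*, the antiviral enzyme viperin, at 49.3 and 64.2 against 1.94 and 2.24 RPKM (4.21 ± 0.20, adjusted p = 0.00042). In EO771 CAFs *Isg15* stood at 35.5 and 38.6 RPKM and in LL2 CAFs at 9.34 and 15.9 RPKM, near the Pan02 level.

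The interferon list held genes on both sides. All 7 *Oas* and *Mx* genes tested were higher in MC38, with a median of 2.91. Guanylate-binding proteins and immunity-related GTPases are induced most by interferon-gamma. Of 14 tested, none was higher in MC38 and 2 were higher in Pan02, with a median of -0.60. Over all genes 14.8% were higher in MC38 and 15.7% in Pan02, so the Pan02 count of this family is near the share of all genes. *Gbp2* stood at 31.8 and 31.2 RPKM in MC38 and at 171 and 95.3 in Pan02 (-1.98 ± 0.30, adjusted p = 0.0053), and *Gbp4* at 2.32 and 2.87 against 19.5 and 6.94 (-1.83 ± 0.45). *Ifit2* was also on the Pan02 side, with 2.76 and 3.34 RPKM in MC38 against 16.04 and 17.9 in Pan02 (-2.15 ± 0.19, adjusted p = 0.0013). *Jak2*, the kinase of the interferon-gamma receptor, was higher in Pan02 (-2.12 ± 0.17). The call of *Gbp4* ended without Pan02 replicate 1 (-1.15, adjusted p = 0.062) and without MC38 replicate 1 (-1.72, adjusted p = 0.05). These families within the list were singled out after their values were seen.

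Interferon-stimulated response elements and the Y box of MHC promoters are short letter patterns, so the promoters of the 2 sides were searched for them. Windows from 250 bases before to 50 after the start site were taken from RefSeq (GRCm38.p6, the same assembly as mm10) for 9264 of the 12853 tested genes whose transcript start matched a window. The pattern of GAAA, any 2 bases and GAAA again, searched on both strands with overlapping matches allowed, was in 3.3% of all these windows, in 55.3% of the 38 windows of interferon response genes, and in 12 of the 19 windows of those higher in MC38 CAFs, or 63.2%. Among all genes higher in MC38 CAFs 5.7% of windows held it, and among those higher in Pan02 CAFs 2.3%. Of the 4 windows of interferon response genes higher in Pan02 CAFs, 1 held it, that of *Gbp2*. The pattern CTGATTGG, part of the Y box, was in 6.1% of all windows and in 36.8% of the 19 windows of MHC class I presentation genes. It was in 5 of the 10 windows of class I genes higher in MC38 CAFs. Among the 6 genes of the antigen-presenting CAF list higher in Pan02 CAFs, only 1, *H2-Eb1*, had a window. *Isg15* and *Rsad2* are shown for the MC38 side, *Gbp2* and *H2-Eb1* for the Pan02 side, 5′ to 3′ on the strand of the gene, with matches to the GAAA pattern on either strand in capitals in the first 3 and the match to CTGATTGG in capitals in the last.
Isg15 promoter, chr4:156200769-156201068 of GRCm38.p6, minus strand: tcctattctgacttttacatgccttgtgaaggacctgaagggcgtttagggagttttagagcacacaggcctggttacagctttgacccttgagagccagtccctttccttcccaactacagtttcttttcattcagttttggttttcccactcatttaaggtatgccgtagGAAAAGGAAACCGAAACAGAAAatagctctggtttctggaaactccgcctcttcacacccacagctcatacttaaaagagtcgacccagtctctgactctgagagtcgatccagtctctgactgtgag
Rsad2 promoter, chr12:26456403-26456702 of GRCm38.p6, minus strand: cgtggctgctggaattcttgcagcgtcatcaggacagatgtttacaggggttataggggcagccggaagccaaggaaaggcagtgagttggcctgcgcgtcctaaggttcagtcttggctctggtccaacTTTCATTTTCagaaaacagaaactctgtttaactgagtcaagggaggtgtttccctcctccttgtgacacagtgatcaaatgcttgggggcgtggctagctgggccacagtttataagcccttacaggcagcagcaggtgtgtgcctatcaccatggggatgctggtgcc
Gbp2 promoter, chr3:142620413-142620712 of GRCm38.p6, plus strand: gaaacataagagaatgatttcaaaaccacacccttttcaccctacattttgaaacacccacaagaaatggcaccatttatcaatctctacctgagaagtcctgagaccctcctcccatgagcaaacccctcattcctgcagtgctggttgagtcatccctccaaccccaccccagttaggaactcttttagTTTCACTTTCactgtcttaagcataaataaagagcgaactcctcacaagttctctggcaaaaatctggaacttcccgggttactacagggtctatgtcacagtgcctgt
H2-Eb1 promoter, chr17:34305617-34305916 of GRCm38.p6, plus strand: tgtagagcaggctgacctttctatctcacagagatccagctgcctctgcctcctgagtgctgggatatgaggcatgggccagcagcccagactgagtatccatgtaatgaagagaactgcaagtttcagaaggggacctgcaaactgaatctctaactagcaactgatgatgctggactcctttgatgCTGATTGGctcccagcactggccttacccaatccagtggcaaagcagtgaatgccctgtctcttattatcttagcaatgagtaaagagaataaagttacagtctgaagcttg
In *Isg15* the first of 3 matches starts 78 bases before the start site, and neighbouring matches overlap. The matches in *Rsad2* and *Gbp2* start 120 and 59 bases before their start sites. The Y box letters of *H2-Eb1* start 62 bases before its start site. A match of letters does not show that a factor was bound.

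Genes of MHC class I presentation, which displays cytosolic peptides, were higher in MC38 CAFs for 11 of 22 and in Pan02 CAFs for none, with a median of 1.09. Without Pan02 replicate 1 the count was 3 and without Pan02 replicate 2 it was 1 (8 and 2 with the filter applied anew), and it was 5 with no filter on all 4 libraries. Without MC38 replicate 1 it was 7 against 1 in Pan02. The immunoproteasome subunit *Psmb10* stood at 309 and 206 RPKM against 75.2 and 64.1 (1.85 ± 0.27, adjusted p = 0.0047) and *Psmb9* at 158 and 123.2 against 40.5 and 34.4 (1.88 ± 0.22, adjusted p = 0.0025). The heavy chain *H2-K1* stood at 2329 and 1868 against 885 and 599 RPKM (1.52 ± 0.42, adjusted p = 0.031), and *H2-D1*, with 1999 and 1466 against 925 and 685, did not pass (1.10 ± 0.41, adjusted p = 0.074). Class I genes are near-identical copies, so reads may be split among them. The call of *H2-K1* ended without either Pan02 library (adjusted p = 0.22 and 0.42), and that of *Psmb10* without replicate 2 (adjusted p = 0.052) and, on the same genes, without replicate 1 (adjusted p = 0.058). *Nlrc5*, the transactivator of class I genes, gave 0.90 ± 0.23, under the fold required.

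MHC class II went the other way. *Cd74* (chr18:60803849-60812652 of mm10, plus strand) stood at 2.71 and 2.31 RPKM in MC38 CAFs and at 556 and 246 in Pan02 CAFs (-6.73 ± 0.39). The 2 Pan02 libraries lay well apart from each other, and both lay far above the MC38 libraries, and above EO771 at 51.2 and 69.1 RPKM and LL2 at 1.28 and 1.07 RPKM. The chains *H2-Aa*, *H2-Eb1* and *H2-Ab1* moved with it, *H2-Aa* at 173 and 85.0 against 1.78 and 1.17 RPKM (-5.64 ± 0.36, adjusted p = 0.00067). *Ciita*, the transactivator of class II genes, was low but on the same side, with 5.55 and 2.10 RPKM in Pan02 and 0.022 and 0.126 in MC38 (-2.07 ± 0.38, adjusted p = 0.0088). In these 2 Pan02 libraries *Ptprc* was at 0.090 and 0.092 RPKM, while *Lyz2*, a lysozyme gene of myeloid cells, was at 3.85 and 10.4 against 1.76 and 1.23 in MC38. In Pan02 tumors *Cd74* stood at 1250 to 3652 and *Ptprc* at 6.36 to 20.5. Of the 13 tested genes of the antigen-presenting CAF list, 6 were higher in Pan02 and 4 in MC38. The MC38 members included *Saa3*, an acute phase gene, at 179 and 108 against 9.48 and 3.19 RPKM (4.40 ± 0.48), and *Cd40*, a receptor of the TNF family, at 4.37 and 3.71 against 0.058 and 0.159 RPKM (2.18 ± 0.21).

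The genes whose levels followed *Cd74* most closely over the 8 CAF libraries, by Pearson's r of log2(RPKM + 1), were *H2-Aa* (0.999), *H2-Eb1* (0.996) and *Stim1* (0.991), a calcium sensor of the endoplasmic reticulum. Those nearest to *Mmp11* were *Helz2* (0.993), *Txlna* (0.993) and *Slc27a1* (0.989), a fatty acid transporter. *Helz2*, an interferon-induced helicase, stood at 38.6 and 49.96 RPKM in MC38 CAFs against 7.79 and 6.12 in Pan02 (2.5 ± 0.21). With 4 models the 8 points are 4 pairs of like libraries, and these likenesses are descriptions.

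Of 21 chemokine genes tested, 6 were higher in each model, and 10 and 6 without MC38 replicate 2. In MC38 CAFs *Ccl2* and *Ccl7*, which attract monocytes, stood at 234 and 267 against 18.9 and 8.06 RPKM (4.22 ± 0.38, adjusted p = 0.0014) and at 73.8 and 68.4 against 10.9 and 4.65 RPKM (3.13 ± 0.36). *Ccl5* and the interferon-induced *Cxcl10*, which attract T cells, stood at 20.1 and 30.4 against 1.41 and 1.28 RPKM (3.46 ± 0.25) and at 208 and 204 against 41.0 and 17.9 RPKM (2.88 ± 0.39). In Pan02 CAFs *Cxcl2*, *Cxcl3* and *Cxcl5*, neutrophil attractants that bind CXCR2, were higher, *Cxcl2* at 151 and 70.3 against 0.562 and 1.10 RPKM (-5.85 ± 0.39, adjusted p = 0.00072), *Cxcl5* at 94.9 and 61.9 against 3.39 and 2.45 (-4.32 ± 0.26) and *Cxcl3* at 30.6 and 36.0 against 0.374 and 1.49 (-4.21 ± 0.32). *Cxcl1*, of the same group, gave 0.53 ± 0.29 with 30.5 and 53.3 against 29.9 and 25.4 RPKM.

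Immunosuppressive factors were called in both directions, 3 of 19 in MC38 and 5 in Pan02, against 14.8% and 15.7% of all genes. The prostaglandin enzymes divided: *Ptges*, the terminal prostaglandin E synthase, stood at 30.1 and 26.03 against 3.06 and 1.66 RPKM on the MC38 side (3.14 ± 0.26, adjusted p = 0.0011), while the cyclooxygenases *Ptgs1* (-2.35 ± 0.20) and *Ptgs2* (-1.66 ± 0.46) were on the Pan02 side. *Cd276*, the checkpoint ligand B7-H3, stood at 46.4 and 44.9 RPKM in Pan02 against 13.2 and 6.35 (-2.19 ± 0.33, adjusted p = 0.0049). Without Pan02 replicate 1 the call of *Ptgs2* ended (-1.07, adjusted p = 0.11). *Cd274*, which encodes PD-L1, gave -0.28 ± 0.31. Inflammatory CAF genes gave 5 and 6 of 36, near the shares over all genes, and complement genes 3 and 4 of 16. Without MC38 replicate 2 these were 14 and 4, and 6 and 1, and without Pan02 replicate 1 they were 4 and 2, and 1 and 1. The immunosuppressive factors gave 2 and 1 without Pan02 replicate 1 and 2 and 3 without Pan02 replicate 2. *Il33*, an alarmin, was higher in Pan02 at 60.8 and 58.3 against 26.6 and 10.1 RPKM (-1.79 ± 0.43), and *Masp1*, a protease of the lectin pathway, at 40.4 and 46.5 against 2.98 and 1.88 (-3.71 ± 0.23). The call of *Il33* ended without either Pan02 library (adjusted p = 0.069 and 0.068), and on the same genes so did that of *Cd276* (adjusted p = 0.057 and 0.054).

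Growth factor pathways leaned to Pan02. Of 35 TGF-beta and BMP pathway genes, 17 were higher in Pan02 and 4 in MC38, with a median of -0.84. With any 1 library left out, calls on the Pan02 side still outnumbered those on the MC38 side. Both counts fell without either Pan02 library. Among the ligands, *Bmp4* stood at 129.6 and 101 RPKM in Pan02 and at 1.31 and 0.615 in MC38 (-5.90 ± 0.25, adjusted p = 0.00041), *Bmp7* at 29.0 and 39.9 against 0.196 and 0.118 (-4.92 ± 0.23), and *Tgfb1* at 83.3 and 65.3 against 33.8 and 28.0 (-1.24 ± 0.21). Of the antagonists, *Fst*, which binds activin, was on the Pan02 side at 118 and 107 against 7.59 and 1.31 RPKM (-4.67 ± 0.59), and *Grem1*, which binds BMPs, on the MC38 side at 13.2 and 19.1 against 0.680 and 0.444 RPKM (3.44 ± 0.25, adjusted p = 0.00081). The receptor *Acvrl1* and its partner *Eng*, both best known in endothelium, were on the MC38 side with 2.19 ± 0.39 and 1.83 ± 0.37. *Tgfb1* lost its call without Pan02 replicate 1 (adjusted p = 0.058) and *Eng* without replicate 2 (adjusted p = 0.058), and on the same genes *Acvrl1* lost its call without replicate 2 (adjusted p = 0.074).

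Of 35 Wnt pathway genes, 15 were higher in Pan02 CAFs and none in MC38, with a median of -0.98. The count for Pan02 was 9 without Pan02 replicate 1 and 11 without Pan02 replicate 2, and 8 and 9 with the filter applied anew. *Notum*, an enzyme that inactivates Wnt proteins, stood at 128 and 126 against 0.830 and 0.457 RPKM (-6.30 ± 0.19, adjusted p = 0.00027, 38.1% of exon bases shared), the ligand *Wnt7b* at 52.5 and 60.2 against 0.135 and 0.128 (-5.66 ± 0.18), and *Lgr5*, the R-spondin receptor, at 21.8 and 31.8 against 0.581 and 0.115 (-4.36 ± 0.28). Of 7 Frizzled receptors 5 were higher in Pan02, *Fzd1* at 137 and 96.6 against 15.2 and 4.69 RPKM (-3.59 ± 0.50), whose call ended on the same genes without Pan02 replicate 1 (adjusted p = 0.052). In EO771 CAFs *Wnt7b* stood at 62.6 and 66.1 RPKM.

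Among paracrine growth factors 11 of 28 were higher in Pan02 and 4 in MC38. The platelet-derived growth factors *Pdgfc* (28.6 and 25.5 against 1.55 and 1.29 RPKM, -3.53 ± 0.19) and *Pdgfb* (-2.99 ± 0.30) and the EGF receptor ligand *Hbegf* (71.8 and 48.6 against 5.29 and 4.70 RPKM, -3.33 ± 0.23) were on the Pan02 side. *Hgf*, *Vegfc* and the receptor *Fgfr1* were among those on the MC38 side, *Hgf*, the ligand of MET, at 7.597 and 7.56 against 0.753 and 1.15 RPKM (2.14 ± 0.21, adjusted p = 0.0016). In the IGF system 4 of 14 were higher in MC38 and 2 in Pan02, and 1 and 2 without Pan02 replicate 1, 0 and 2 without Pan02 replicate 2 and 4 and 4 without MC38 replicate 1. *Igfbp4*, which sequesters IGFs, stood at 1594 and 887 RPKM in MC38 against 147 and 72.1 (3.52 ± 0.47, adjusted p = 0.0036, and 0.069 on the same genes without Pan02 replicate 2), while the ligand *Igf2* and the receptor *Igf1r* (-1.55 ± 0.19) were higher in Pan02.

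Early response and heat shock genes, which digestion and sorting can induce, were higher in Pan02 CAFs for 15 of 27 and in MC38 for none, with a median of -1.53. The count was 6 without Pan02 replicate 1, 12 without Pan02 replicate 2, 8 without MC38 replicate 1 and 11 without MC38 replicate 2. *Atf3* stood at 217 and 76.4 RPKM in Pan02 and at 4.65 and 4.35 in MC38 (-4.56 ± 0.48, adjusted p = 0.0020), *Nr4a1* at 885 and 204 against 23.3 and 16.6 (-4.36 ± 0.67, adjusted p = 0.0055) and the inducible chaperone *Hspa1a* at 138 and 127 against 9.76 and 7.24 (-3.82 ± 0.20). In EO771 CAFs *Atf3* stood at 136 and 129 RPKM and *Hspa1a* at 153 and 142 RPKM, nearer to Pan02 than to MC38. The list summed to 10394 and 5814 RPKM in Pan02 and 2886 and 3171 in MC38. The part of this difference in the calls above was not tested.

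Other general programs were also counted. Cell cycle genes gave 4 called genes on each side of 52 (2 and 2 without Pan02 replicate 1, 5 and 2 without Pan02 replicate 2), and *Mki67*, the proliferation marker, stood at 10.3 and 15.3 against 10.2 and 18.5 RPKM (-0.12 ± 0.33). Glycolysis and hypoxia genes gave 4 and 2 of 32. Ribosomal protein genes were higher in MC38 for 8 of 37 and in Pan02 for none, with a median of 0.71. None was called without either Pan02 library, 5 were called without MC38 replicate 1, 17 without MC38 replicate 2, 2 with no filter and 4 when replicate number entered as a block. Non-coding transcripts also leaned to MC38, with 297 of 1124 higher there and 115 in Pan02, against 1600 and 1901 of 11729 coding transcripts. *Rpph1*, the RNA of RNase P, stood at 75.5 and 39.5 against 1.53 and 5.18 RPKM (3.82 ± 0.50, 73.0% of exon bases shared).

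*Hox* genes, which keep a positional code in fibroblasts, were higher in MC38 CAFs for 14 of 29 and in Pan02 for 3, with a median of 1.16. All 5 tested *Hoxd* genes and 5 of 8 *Hoxb* genes were on the MC38 side, *Hoxd9* at 10.1 and 13.2 against 0.413 and 0.147 RPKM (3.30 ± 0.23, adjusted p = 0.0008). The *Hoxa* cluster divided, with *Hoxa9* at 9.92 and 17.0 against 0.776 and 0.650 RPKM (3.03 ± 0.29) and *Hoxa3*, *Hoxa5* and *Hoxa6* on the Pan02 side, *Hoxa5* at 35.6 and 29.3 against 6.12 and 9.48 RPKM (-1.95 ± 0.25). The list gave 12 and 2 without Pan02 replicate 1, 11 and 2 without Pan02 replicate 2, 15 and 3 without MC38 replicate 1 and 17 and 3 without MC38 replicate 2, whereas with the filter applied anew the last 2 were 5 and 3, and 7 and 3. The call of *Hoxa6* ended without Pan02 replicate 2 (adjusted p = 0.062).

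Whole tumors of the same lines gave the same contrast in other libraries, which may come from the same mice. In tumors 1905 of 15015 genes were higher in MC38, or 12.7%, and 2616 were higher in Pan02, or 17.4%, by edgeR at the same thresholds, while with total-count scaling the numbers were 2609 and 2072, since that scaling moved the median of all genes from -0.07 to 0.15. Of the 1897 genes higher in MC38 CAFs, 737 were called in the same direction in tumors, which is 38.9% of the CAF calls and 38.7% of the tumor calls, and 49 were called in the opposite direction. Of the 2016 genes higher in Pan02 CAFs, 1034 were called in the same direction, 51.3% of the CAF calls and 39.5% of the tumor calls, and 8 in the opposite direction.

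Many of the genes named above were called alike in both materials. *Bmp4* gave -7.10 in tumors, *Notum* -8.03, *Igf2* -7.83, *Krt18* -9.37 and *Fam159b* 10.00, and 25 of 54 interferon response genes were higher in MC38 tumors, *Isg15* with 3.50 (adjusted p = 0.00074). In tumors 7 of 11 fibrillar collagen genes and 37 of 58 matrix glycoprotein and proteoglycan genes were higher in Pan02, against 0 of 9 and 12 of 57 in CAFs, and of 28 vascular CAF genes none was higher in MC38 tumors and 9 were higher in Pan02 tumors. *Mmp2* was at 55.6 to 120.3 RPKM in MC38 tumors and at 120.4 to 401 in Pan02 tumors (-1.89, adjusted p = 0.016), the reverse of the sorted cells, and *Mrc2*, an endocytic collagen receptor, gave -1.23 (adjusted p = 0.0012) in tumors against 2.05 in CAFs. *Mmp11* gave -0.93 in tumors without passing the test (adjusted p = 0.12), with 41.4 to 104 in MC38 tumors and 60.9 to 157 in Pan02 tumors. *Mmp2* and *Mrc2* were chosen after their values were seen, and the difference between CAFs and tumors was not tested in a joint model.

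**Figure D4:**
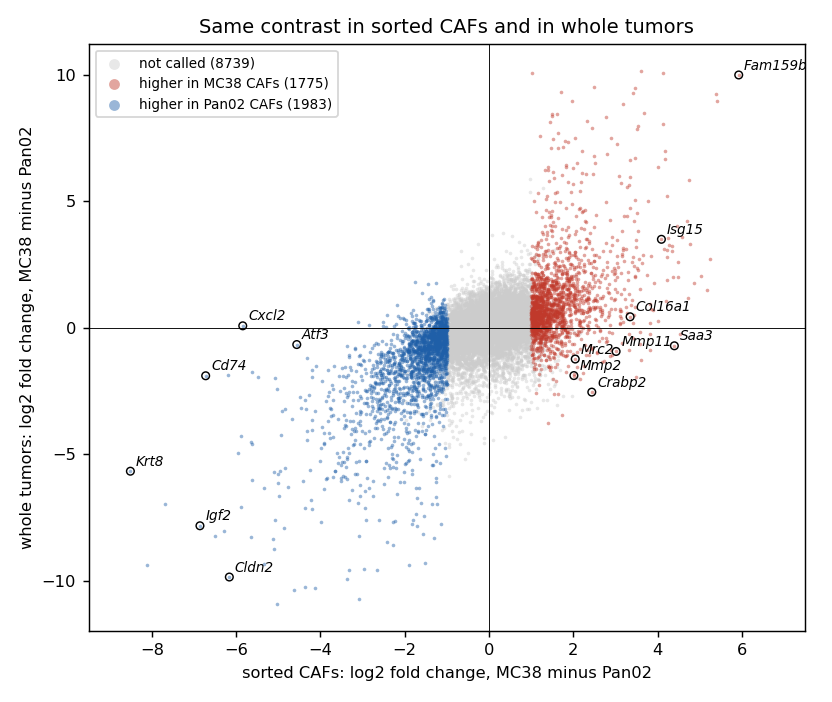
Log2 fold change of MC38 over Pan02 in sorted CAFs (horizontal axis) and in whole tumors (vertical axis), 1 point per gene tested in both, coloured by the call in CAFs. Points of *Igf2*, *Krt8* and *Cldn2* lie at the lower left and *Isg15* and *Fam159b* at the upper right, while *Mmp2*, *Mrc2* and *Crabp2* are to the right of 0 and below it.

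*Cxcl2* and *Atf3*, called in CAFs, did not pass in tumors, where *Cxcl2* gave 0.08 (adjusted p = 0.95) and *Atf3* -0.66 (adjusted p = 0.40). For *Cd74* the tumor difference had the same sign and was smaller, at -1.90 (adjusted p = 0.012), with 568 to 1069 RPKM in MC38 tumors and 1250 to 3652 in Pan02 tumors. 

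The called genes were spread unevenly over the chromosomes. Chromosome position did not enter the choice of samples, but the calls come from the expression values that did, so the shares are a description. On chromosome 12, 34.8% of 437 tested genes were higher in Pan02 CAFs and 6.9% in MC38, with a median log2 fold change of -0.68. Chromosome 15 followed with 29.5% and 9.5% of 546 genes and a median of -0.39. In the other direction, on chromosome 8, 25.6% of 718 genes were higher in MC38 and 6.7% in Pan02, with a median of 0.46, and on chromosome 4 the shares were 21.1% and 9.5% of 797. Leaving out each library in turn kept the sign of these medians, from -0.77 to -0.59 for chromosome 12 and from 0.40 to 0.53 for chromosome 8. In whole tumors the medians were -0.30 for chromosome 12, -0.49 for chromosome 15, 0.26 for chromosome 8 and 0.13 for chromosome 4, on a scale where all genes had -0.07. Not all chromosomes were alike in the 2 materials. Chromosome 7 had -0.38 in tumors and -0.05 in CAFs, and chromosome 17 had -0.17 in tumors and 0.18 in CAFs. Genes on a chromosome are not independent, so these shares are given without a test.

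**Figure D5:**
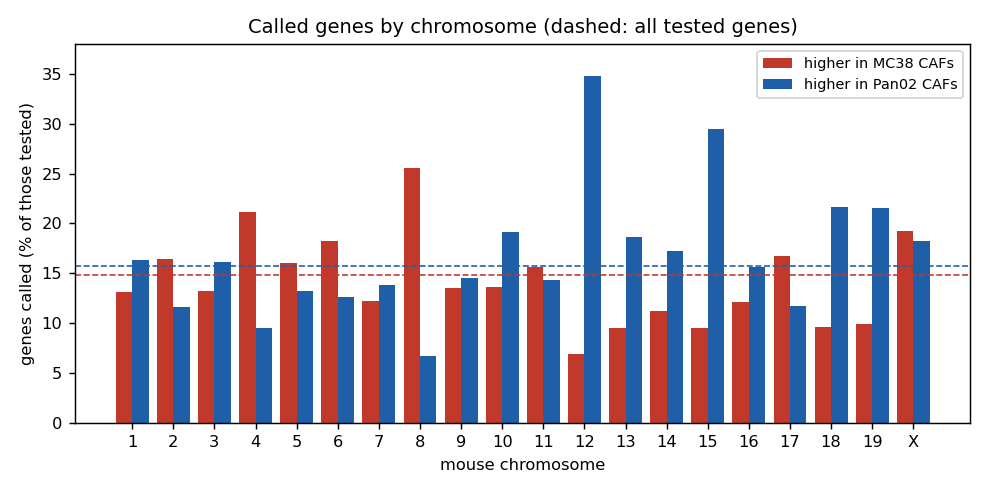
Share of tested genes on each chromosome called higher in MC38 CAFs (red bars) or in Pan02 CAFs (blue bars), in percent, with dashed lines at the shares over all genes, 14.8% and 15.7%. The blue bars of chromosomes 12 and 15 reach 34.8% and 29.5%, and the red bar of chromosome 8 reaches 25.6%.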

How the data were processed

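FAP+ CAF libraries (poly(A), unstranded; 2 each of MC38, Pan02, EO771 and LL2) and whole-tumor libraries were used. The authors deposited RPKM values for the CAF libraries, 1 per RefSeq transcript. For tumors the authors deposited expected counts, some of them fractional. Per the submitters' processing notes the tools include STAR 2.5.0c, HOMER and DESeq2, with build mm10. Of 40458 transcripts, 2 name no gene. Where a symbol had several transcripts, the one highest in mean RPKM was kept, leaving 24940 symbols, with 69.4% of them having 1 transcript. Columns of 5 other samples were not used.

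The 4 CAF libraries were fitted on the log2(RPKM + 1) scale in limma 3.58.1 with a mean-variance trend and no covariate, and p-values were adjusted by Benjamini-Hochberg. A pair of 2 libraries against 2 cannot give an exact 2-sided permutation p below 0.333. Counts of the tumors, rounded up to integers, were tested for the same transcripts with the quasi-likelihood test of edgeR 4.0.16 (filterByExpr, TMM), with DESeq2 1.42.0 as an alternative. Reads recovered from the RPKM steps fell on the steps that reads can make for 99.8% to 100% of low values, within 0.25 of a step, and gave an edgeR alternative for CAFs. Tumor levels were scaled separately from CAF RPKM. Analyses ran in R 4.3.3 and Python 3.11.15, and the tests were tested on simulated data. Named genes were the 12 largest changes each way with a mean of at least 10 RPKM and no overlap, up to 3 called members of each list each way, the member with the largest mean, and defining markers; other named genes were chosen after their values were seen. Values of 2 genes are not reported here. The comparison, its markers and the gene lists were chosen with earlier results of these data known. Alternatives were another pseudocount, filter, scaling and transcript choice, and each library left out. Promoter sequences are from RefSeq.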

Additional observations from a re-analysis of the deposited data

How the results depend on the processing

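Of 218 named genes tested, 121 kept their direction and their side of the threshold under all 18 alternatives, and 13 changed sign in at least 1. With another scaling, pseudocount, filter, transcript choice or tool, 1729 to 2445 genes were higher in MC38 CAFs and 1854 to 2472 in Pan02 CAFs. With edgeR on recovered reads 95.0% of the genes higher in MC38 and 97.9% of those higher in Pan02 had the same call. An adjusted p alone gave 2951 and 3098 genes, and a threshold of 2 on the log2 scale gave 444 and 570. The variance share of the first component was 37.2% scaled by gene, 39.9% with pseudocount 0.1 and 40.2% without the filter. Leaving out 1 library at a time gave 1157 to 1750 genes higher in MC38 and 1120 to 2138 in Pan02. The fewest genes for MC38 came without Pan02 replicate 1, and the fewest for Pan02 came without Pan02 replicate 2. In each such fit the minimum of 1 RPKM in 2 libraries was applied anew and removed genes high only in the group left with 1 library. With the genes held fixed, the counts without a Pan02 library were lower still on both sides. On the same genes, 1754 and 2086 were called without MC38 replicate 1, and 2265 and 2053 without replicate 2, while 786 and 983 were called without Pan02 replicate 1 and 869 and 1048 without Pan02 replicate 2. With all 4 libraries 48.5% of the calls were on the MC38 side. Without MC38 replicate 1 this share was lower, more so with the filter applied anew than on the same genes.

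Genes that changed sign when 1 library was left out had not passed the test. The log2 fold change ran from -1.73 to 1.15 for *Acta2*, -1.24 to 1.33 for *Col1a1*, -1.19 to 1.20 for *Col1a2*, -0.21 to 1.45 for *Col3a1*, -0.51 to 0.30 for *Col6a1*, -0.07 to 0.62 for *Lgals1*, -0.41 to 0.79 for *Mmp14*, -0.61 to 0.47 for *Pdgfrb*, -0.27 to 1.91 for *Sfrp2* and -0.92 to 1.11 for *Sparc*, with the lowest value without MC38 replicate 1 and the highest without MC38 replicate 2. For *Cd274* it ran from -0.67 to 0.11 and for *Mki67* from -0.52 to 0.28, between the fits without either Pan02 library. On the same genes *Ido1* gave 0.12 and *Pdgfrb* 0.15 without Pan02 replicate 1, and *Col1a1* gave -0.43, *Col1a2* -0.55 and *Sparc* -0.04 without Pan02 replicate 2. On the genes tested with all 4 libraries, *Col6a1* gave 0.30 and *Acta2* 1.15 without MC38 replicate 2, and *Mki67* gave 0.14 without replicate 1. edgeR on recovered reads gave 0.27 for *Acta2*. The cause was not tested.

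With the replicate number as a block, 2015 and 2098 genes were called in CAFs, and 1828 and 2287 in tumors. Samples sharing a number correlated in their deviations by 0.252 in CAFs and by -0.168 to -0.035 in tumors. With 2 libraries per group the value is the same for both CAF numbers by construction, so they are not separate observations. Whether the numbers pair the CAF sorts cannot be told from it, while the tumor values gave no sign of pairing. In tumors, leaving out 1 library gave 1648 to 2410 and 2157 to 2757 genes, and DESeq2 gave 2138 and 2766.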

Other observations

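Genes of further cell types were counted in the sorted cells. Of 9 erythrocyte genes 4 were tested, and all 4 were higher in MC38 CAFs. *Hbb-bs*, a globin chain, stood at 6.45 and 4.09 RPKM against 0.097 and 0.088 in Pan02 (log2 fold change 2.49 ± 0.25, limma adjusted p = 0.0019). All 9 summed to 0.419 and 0.37 RPKM in the Pan02 libraries. The 4 thus passed the filter through the MC38 libraries alone, so their shared direction is not separate evidence. In tumors all 7 tested were higher in MC38 as well. Of 7 skeletal muscle markers 3 were higher in MC38 CAFs and 2 in Pan02, while none of 19 was called in tumors. The MC38 calls rested on having both Pan02 libraries. The median log2 fold change of these markers was 0.99, and on the same genes 0.96 without Pan02 replicate 1 and 1.01 without Pan02 replicate 2. Of 7 mesothelial markers 6 were higher in Pan02 CAFs, among them *Krt8*, *Krt18* and *Krt19*, which are also epithelial markers.

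Of 7 adipocyte and Schwann cell markers 1 was higher in MC38 CAFs and 4 in Pan02. *Fabp4*, a fatty acid carrier of adipocytes and capillaries, stood at 86.8 and 32.7 RPKM in MC38 against 2.61 and 2.11 in Pan02 (4.02 ± 0.45, limma adjusted p = 0.0023), whereas *Plin4*, a lipid droplet coat gene, stood at 6.90 and 3.65 RPKM in Pan02 against 0.408 and 0.085 in MC38 (-2.29 ± 0.32). Cell cycle inhibitors divided too. *Cdkn2a* stood at 9.58 and 11.9 RPKM in MC38 against 0.903 and 0.847 in Pan02 (2.64 ± 0.20), and *Cdkn2c* at 36.4 and 50.8 RPKM in Pan02 against 14.5 and 14.6 in MC38 (-1.50 ± 0.21).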
